A study of Canis lupus familiaris with 33 samples.

Results

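The subject here is a contrast within canine invasive urothelial carcinoma (iUC), drawn between tumors with much and with little ERBB2 messenger RNA. The 29 tumors were ranked by the deposited TMM-normalized value of ERBB2, and the 10 highest (ERBB2-high tumors) were compared with the 10 lowest (ERBB2-low tumors) over all other genes, leaving 9 tumors in between. The whole series holds 33 samples, since 4 samples of normal bladder mucosa were sequenced with the tumors. Every tumor came from a different pet dog that had received no treatment, and the tumors were high grade with almost purely epithelial cellularity. The study gives cystoscopic biopsy as the means of collection, and in another place says this of the majority of tumor samples. The normal samples were mucosa dissected from bladders, and all libraries were made from RNA depleted of ribosomal RNA and sequenced as a single batch. No group carried an engineered allele, a transgene or an agent. The groups were therefore defined by a measurement and not by a treatment, tumor numbers are only names given in accession order, and ages of the dogs were not used here. DNA copy number and ERBB2 protein were not measured in these files.

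ERBB2 encodes a receptor tyrosine kinase of the epidermal growth factor receptor family. It binds no ligand of its own and signals by pairing with the other members, EGFR, ERBB3 and ERBB4, which bind ligands such as amphiregulin and the neuregulins. The gene lies in a gene-dense stretch of its chromosome, and in human breast, gastric and bladder cancers that stretch can be present in extra copies, which raises the messenger RNA of ERBB2 and of its neighbors together. In urothelium, ERBB2 is a feature of the differentiated, luminal cells.

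Each value is a log2 normalized level set against the middle of the 33 samples for the same gene, so 0 is the middle sample and a difference of 1 is a doubling. ERBB2 itself ran from -1.24 in tumor 20 to 2.25 in tumor 2. In the ERBB2-high tumors the lowest value was 0.20, the median 0.27 and the highest 2.25, and in the ERBB2-low tumors these were -1.24, -0.25 and -0.07. The groups are separated by construction, and no test was made of ERBB2. The last tumor inside the high group (tumor 27, 0.20) was level with the first outside it (tumor 28, 0.19), and the last inside the low group (tumor 8, -0.07) was level with the first outside (tumor 24, -0.05). The gap between the groups was 0.27, which is 1.21-fold. Most of the contrast is thus a small step, and its ends are single tumors. Tumor 2 lay 1.55 above the second highest, a 2.94-fold distance, whereas the other 9 ERBB2-high tumors spanned 0.50. Normal mucosa had lower ERBB2 than nearly every tumor, with values from -1.97 to -1.23. Of the tumors, 28 lay above all 4 normals, and tumor 20 lay just below the highest normal.

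**Figure D1:**
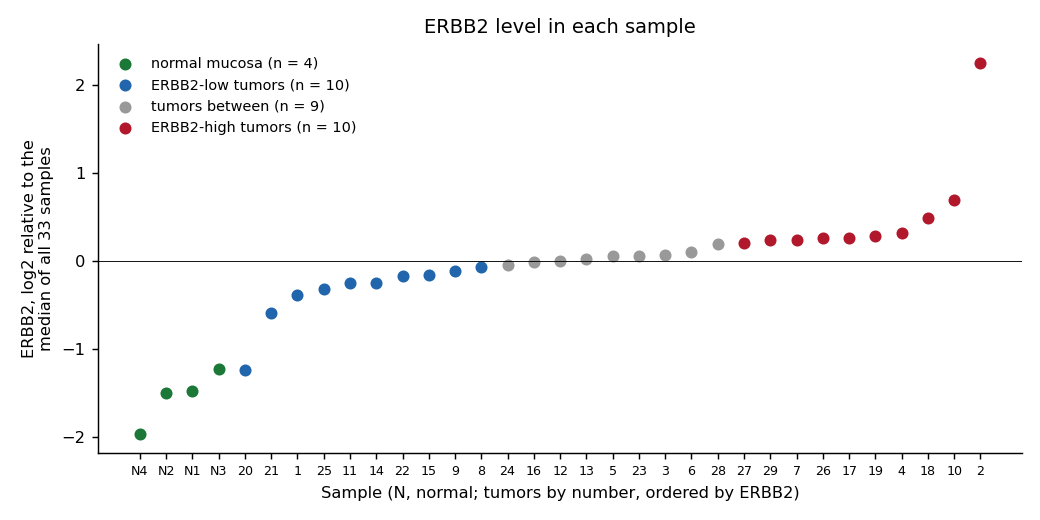
ERBB2 level in each sample, on the log2 scale relative to the median of 33 samples (vertical axis), with the 4 normals and then the 29 tumors in order of ERBB2 (horizontal axis, sample names). Tumor 2 at 2.25 and tumor 20 at -1.24 stand apart from the tumors next to them, and the other tumors form a continuous slope through 0.

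The labelled tissue was checked against epithelial markers. EPCAM, CDH1, KRT19, UPK1A, UPK2, UPK3A and GATA3 were above their lowest value in 29 of 29 tumors, and KRT7, KRT8 and KRT18 were not analysed here. A gene with no lowest value shared between samples was counted as above it in all of them. Many olfactory receptor genes also met this criterion, as given below, so it is a weak check of the tissue. The libraries differed in how many genes lay at their lowest value, a floor that many samples share. This number ran from 4638 to 8140 genes in ERBB2-high and from 3699 to 7077 in ERBB2-low tumors, with means of 6853 and 6219 (difference 633, two-sided permutation test, p = 0.194, adjusted p = 0.414 over 3 technical measures). Olfactory receptor genes, which are not expected to be active in bladder, were above the lowest value for 4.27% to 75.7% of 375 genes in ERBB2-high and for 11.7% to 91.5% in ERBB2-low tumors (p = 0.276 by permutation, adjusted p = 0.414). This share was highest in 4 tumors of the comparison, ERBB2-low tumors 25, 14 and 8 and ERBB2-high tumor 17. The normals had 99.7% or more of these genes above the lowest value.

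Across the transcriptome the contrast left almost nothing past the threshold. Of 21331 genes tested with limma, 0 were higher in ERBB2-high tumors at a Benjamini-Hochberg adjusted p of at most 0.05 (740 at an unadjusted p under 0.05, 3.47% of the genes tested), and 1 was lower (0.00469% of the genes; 885 at an unadjusted p under 0.05, 4.15%). The median difference over all genes was -0.05, and the median standard error of a difference was 0.31. A gene named below therefore passed no adjusted threshold unless this is stated, and its p values are given as a description of how far it stood out.

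The 1 gene that fell, ENSCAFG00000037514, carries no symbol. It lay at its lowest value in 7 of 10 ERBB2-high tumors and in 0 of 10 ERBB2-low tumors. The lowest, median and highest values were -1.13, -1.13 and 0.02 in ERBB2-high and -0.31, 0.85 and 2.55 in ERBB2-low tumors, so the groups overlapped. The difference was -1.88 (SE 0.29, 95% CI -2.48 to -1.28, n = 10 against 10, limma adjusted p = 0.0456). In normals, the samples with the most olfactory receptor genes above the lowest value, it lay between 2.98 and 3.87. With the olfactory receptor share as a covariate its difference was -1.85 (adjusted p = 0.140), and without the 4 tumors of highest share it was -2.03 (adjusted p = 0.273). The call was lost when any of 15 of the 20 tumors was left out.

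Among the receptors of the family, ERBB3 and EGFR were both measured, and ERBB4 was not analysed here. ERBB3, a partner of ERBB2 with little kinase activity of its own, had values of -0.10, 0.28 and 0.57 (lowest, median, highest) in ERBB2-high and -0.95, -0.39 and 0.32 in ERBB2-low tumors. All 10 ERBB2-high tumors were above the median of the low group, although the groups overlapped. The difference was 0.61 (SE 0.16, 95% CI 0.27 to 0.95, p = 0.00139, adjusted p = 0.386 by limma). The tumors in between had a median of 0.04 and the normals were at -2.79 to -1.96, below every tumor. EGFR, the receptor for epidermal growth factor, had values of -0.30, 0.24 and 0.70 in ERBB2-high and -0.93, -0.20 and 0.26 in ERBB2-low tumors. Its difference was 0.46 (SE 0.18, 95% CI 0.09 to 0.84, p = 0.0178, adjusted p = 0.589), and its normals overlapped the low group, at -0.66 to -0.05. ERBB3 in bulk tissue is also a gene of Schwann cells. Of the other 8 measured Schwann cell and nerve genes, 0 had an unadjusted p under 0.05, beside 3.47% higher and 4.15% lower over all genes. So few genes cannot show whether Schwann cells had a part in the ERBB3 difference, which was not tested.

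The ligands did not follow the receptors. Of 11 ligand genes, 6 were measured and 0 had an unadjusted p under 0.05 in either direction, with a median difference of -0.15, which was 0.36 with the mean level of epithelial genes as a covariate. NRG2, a neuregulin, differed by 1.06 (SE 0.52, p = 0.0563) and NRG1, the main neuregulin for ERBB3, by -0.78 (SE 0.41, p = 0.0702). The other 4 differed by -0.24 for EPGN, -0.19 for HBEGF, -0.10 for BTC and 0.17 for AREG, each with a standard error above its difference. AREG, amphiregulin, had a standard error of 1.12, so that a difference of several-fold in either direction could not be told from none.

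Adaptors and inhibitors of the receptors went both ways. Of 23 measured members, 3 were higher and 1 lower at an unadjusted p under 0.05, beside 3.47% and 4.15% of all genes, and the median difference was 0.09. MUC1, a membrane mucin that associates with ERBB receptors, differed by 0.92 (SE 0.26, p = 0.00225, adjusted p = 0.421). GAB1, a docking protein of receptor tyrosine kinases, differed by 0.56 (SE 0.24, p = 0.0323). LRIG1, which promotes the degradation of ERBB receptors, was on the other side. Its values were -1.29, -0.47 and 0.03 in ERBB2-high against -0.57, 0.28 and 0.79 in ERBB2-low tumors, a difference of -0.75 (SE 0.20, 95% CI -1.17 to -0.34, p = 0.00114, adjusted p = 0.386), and no ERBB2-high tumor reached the median of the low group. GRB7, the adaptor encoded next to ERBB2, differed by 0.83 and is described with the neighbors. Targets of the MAPK pathway downstream of the receptors gave no such pattern. Of 17, 0 were higher and 1 was lower at an unadjusted p under 0.05 (median difference -0.15, or -0.27 with the epithelial covariate). That gene was IER3, an immediate-early gene, with medians of -0.62 and 1.04 and a difference of -1.28 (SE 0.35, p = 0.00136, adjusted p = 0.386). DUSP4, a phosphatase that feeds back on MAPK, differed by 0.86 (SE 0.54) and CCND1, cyclin D1, by -0.99 (SE 0.61).

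The neighbors of ERBB2 were compared next. Of 41 genes of the human 17q12 amplicon region found in the data, 40 were tested. MIEN1 did not pass the filter for entering the fit, so no difference is given for it. At an unadjusted p under 0.05, 11 were higher (27.5%, beside 3.47% of all genes) and 1 was lower, and the median difference was 0.29. GRB7 had values of -0.24, 0.48 and 2.02 in ERBB2-high and -1.37, -0.36 and 0.31 in ERBB2-low tumors (difference 0.83, SE 0.28, p = 0.00649, adjusted p = 0.535). PGAP3, which remodels lipid anchors of surface proteins, differed by 1.10 (SE 0.31, p = 0.00172, adjusted p = 0.386). MED24, a subunit of the Mediator complex, had its lowest ERBB2-high value (0.04) level with its highest ERBB2-low value (0.04), and differed by 0.61 (SE 0.20, p = 0.00644). The other 8 were THRA (0.76), LASP1 (0.73), ORMDL3 (0.63), FBXL20 (0.60), PCGF2 (0.58), WIPF2 (0.42), PIP4K2B (0.40) and CASC3 (0.29), where each number is the difference.

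The remaining neighbors had an unadjusted p of 0.05 or more. With their differences, they were CDK12 (0.40), MED1 (0.39), NEUROD2 (0.46), CWC25 (0.30), CACNB1 (0.48), STARD3 (0.33), PNMT (1.45, SE 1.06), RARA (0.25), RPL19 (0.32), PSMD3 (0.29), LRRC3C (0.51), TOP2A (0.30), RPL23 (0.20), CDC6 (0.29), PSMB3 (0.04 in 1 row of the table and -0.20 in another of the same symbol), NR1D1 (0.04) and SMARCE1 (0.01) with a positive sign. With a negative sign they were TNS4 (-1.28, SE 0.71), CCR7 (-0.72), IKZF3 (-0.87), STAC2 (-0.67), IGFBP4 (-0.53), CSF3 (-0.50), GSDMA (-0.49), PPP1R1B (-0.60, SE 1.09), PLXDC1 (-0.20), CISD3 (-0.12) and TCAP (-0.14). IKZF3 and CCR7 are genes of lymphocytes. TOP2A, the topoisomerase that is a frequent companion of ERBB2 in human amplicons, had a difference of 0.30 with a 95% CI from -0.40 to 0.99, and tumor 2 ranked 27 of 29 for it.

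Tumor 2, the tumor with most ERBB2, was also the highest of 29 tumors for a run of genes beside it. The run was chosen after the values were seen, from gene order in RefSeq. From THRA on one side of ERBB2 to OSBPL7 on the other, tumor 2 was highest for 32 of 46 tested genes, ERBB2 not counted, against 4.21% of placed genes on other chromosomes. Over these 46 genes tumor 2 lay a median of 1.67 above the median of the 29 tumors, which is 3.18-fold, and its distance exceeded 1 for 34 of them. Beyond THRA the run ended. For the 11 tested genes from SMARCE1 to NR1D1 tumor 2 was highest for 0, with a median distance of -0.37. LASP1, an actin-binding protein, was at 3.01 in tumor 2, which is 2.95 above the tumor median, while the next highest tumor was 0.68 above it. STARD3, a cholesterol carrier of endosomes, was at 1.85, and CDK12, a kinase of transcription elongation, at 1.81. Among the 50 tested genes nearest to ERBB2 on both sides, tumor 2 was highest for 23, and the next most frequent tumor for 5.

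**Figure D2:**
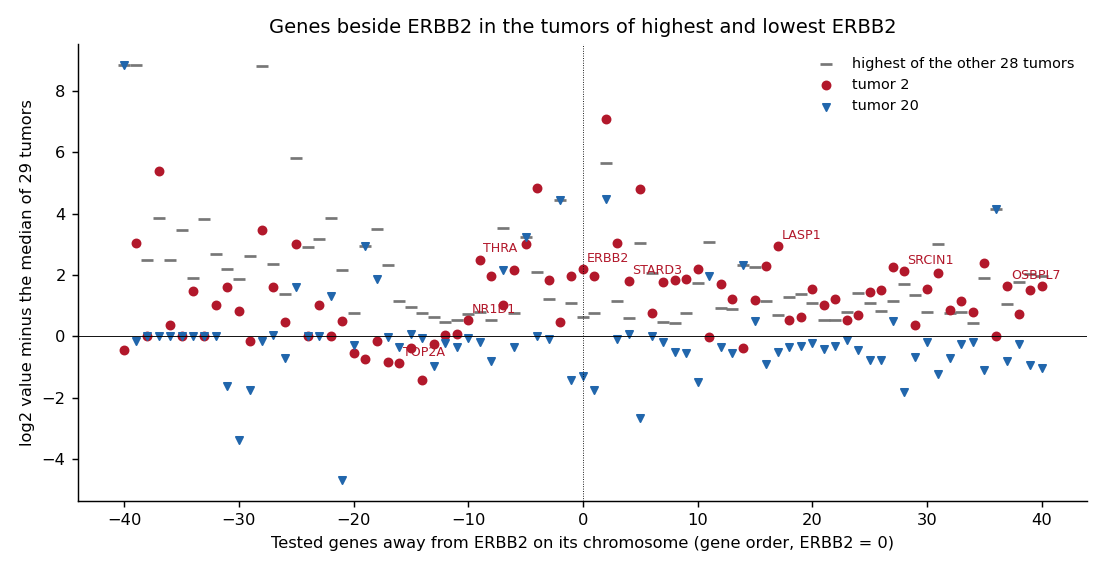
Genes in order along the chromosome of ERBB2 (horizontal axis, number of tested genes from ERBB2, which is at 0), each with its log2 value minus the median of 29 tumors (vertical axis) in tumor 2 (circles), in tumor 20 (triangles) and in the highest of the other 28 tumors (dashes). From THRA rightwards to OSBPL7 tumor 2 lies above the other tumors for 32 of 46 genes, and from SMARCE1 to NR1D1 for 0 of 11.

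Without tumor 2 the neighbors kept part of the difference. The median difference of the 40 neighbors went from 0.29 to 0.16, that of the 20 tested genes nearest to ERBB2 from 0.43 to 0.22, and the number of these 20 at an unadjusted p under 0.05 was 6 both with tumor 2 and without it. GRB7 differed by 0.66, PGAP3 by 0.93 and MED24 by 0.44 without tumor 2, against 0.16 for STARD3 and 0.24 for CDK12. Tumor 20, at the other end, was the lowest of the tumors for the neighbors GRB7, PGAP3, MED24, MED1, WIPF2, CWC25 and PCGF2, and the highest for others, among them IKZF3, CCR7 and GSDMA. Tumor 20 was lowest for 8 of the 50 genes nearest to ERBB2, and tumor 1 for 10.

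The chromosome of ERBB2 as a whole leaned the same way. Of its 919 other tested genes, 106 were higher and 31 lower at an unadjusted p under 0.05, so that 11.5% were higher, against 3.89% on other chromosomes. The median difference was 0.14 on this chromosome, 0.12 among its 719 genes more than 100 genes away from ERBB2, and -0.02 elsewhere. Without tumor 2 the median of this chromosome was 0.15. It was not taken without tumor 18, an ERBB2-high tumor that was the highest for 23 of 25 genes in a window of this chromosome. How far that tumor makes the lean was not tested. Of the 26 chromosomes with at least 100 tested genes, this had the highest median difference, and the others ran from -0.17 to 0.12. Genes on one chromosome can share copies and are not independent, and no test of the chromosome was made.

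When ERBB2 was used as a continuous measure instead of as groups, more genes passed, and the end tumors decided which. Over 29 tumors the slope on ERBB2 passed an adjusted p of 0.05 in 43 genes upward (0.195% of 22029) and 4 downward (0.0182%) by limma, and an unadjusted p of 0.05 in 4.96% and 4.56%. Of these 47, tumor 2 was highest in 40, and of the 36 that could be placed on a chromosome 27 lay on that of ERBB2. MED24 (slope 0.74 per unit of ERBB2, SE 0.09), LASP1 (1.01, SE 0.12), FBXL20 (0.75, SE 0.11) and PGAP3 (1.12, SE 0.16) led them. LGALS2, a galectin, had the steepest downward slope of the named ones (-1.54, SE 0.27, adjusted p = 0.00776). Without tumor 2 the slope passed in 65 genes upward (0.296%) and 120 downward (0.546%), with 5.07% and 7.54% at an unadjusted p under 0.05, and tumor 20 was the highest or the lowest tumor in 154 of these 185. UPK1A, a uroplakin (2.32, SE 0.35), PPARG, a regulator of urothelial differentiation (1.44, SE 0.25), FOXA1 (1.25, SE 0.25) and GATA3 (1.23, SE 0.25) were among those upward. Downward were KRT13 (-4.33, SE 0.88), a keratin of stratified epithelium, and TNFRSF17 (-1.96, SE 0.39), a receptor of plasma cells. Without both end tumors the slope passed in 0 genes either way by limma, with 777 upward (3.55%) and 1018 downward (4.65%) at an unadjusted p under 0.05. Both fits with end tumors left out were chosen after the data were seen.

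Gene lists were then described by how many members stood out, beside 3.47% higher and 4.15% lower over all genes. Luminal regulators, the transcription factors of differentiated urothelium, had 7 of 18 members higher and 0 lower at an unadjusted p under 0.05, with a median difference of 0.41. GATA3 had values of 0.01, 0.19 and 1.14 in ERBB2-high against -1.57, -0.89 and 0.27 in ERBB2-low tumors. The difference was 1.07 (SE 0.23, 95% CI 0.60 to 1.54, p = 0.000117, adjusted p = 0.259), the groups overlapped, and the normals lay at -1.31 to -0.75. TBX2, a T-box factor, differed by 1.11 (SE 0.25, p = 0.00024, adjusted p = 0.259), with medians of 0.39 and -0.56. FOXA1 differed by 0.71 (SE 0.30), PPARG by 0.70 (SE 0.30), GRHL3 by 0.55 (SE 0.23) and OVOL2 by 0.53 (SE 0.25). Leaving out tumor 20 moved FOXA1 to 0.52 and PPARG to 0.48 and left GATA3 at 1.02.

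Uroplakins and other genes of umbrella cells, which line the bladder lumen, had 5 of 18 members higher and 0 lower, with a median difference of 0.43. UPK3A differed by 0.60 (SE 0.21, p = 0.0087, adjusted p = 0.548), and its lowest ERBB2-high value of -0.12 lay above the median of the low group. UPK1A had values of -1.10, 0.33 and 0.90 in ERBB2-high and -4.65, -0.52 and -0.23 in ERBB2-low tumors, with tumor 20 at -4.65. Its difference of 1.18 (SE 0.43) was 0.77 without tumor 20, a move of over 1.5 times. UPK2 differed by 0.83 (SE 0.33) and FBP1, an enzyme of gluconeogenesis, by 0.85 (SE 0.31). Epithelial adhesion and junction genes had 4 of 19 higher and 0 lower (median difference 0.20), with OCLN, occludin, at 0.67 (SE 0.20, p = 0.00316) and EPCAM at 0.64 (SE 0.26, p = 0.0244), while CDH1, E-cadherin, differed by 0.34 (SE 0.23). With the mean level of the epithelial list as a covariate, the median difference was 0.22 for luminal regulators and 0.24 for umbrella cell genes. Known regulators of ERBB2 transcription had 1 of 10 higher, ZNF652 (0.44, SE 0.17). Their median was 0.21, or 0.10 with the epithelial covariate, 0.12 without tumor 22 and 0.35 without the 4 tumors with most olfactory receptor genes above the lowest value.

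**Figure D3:**
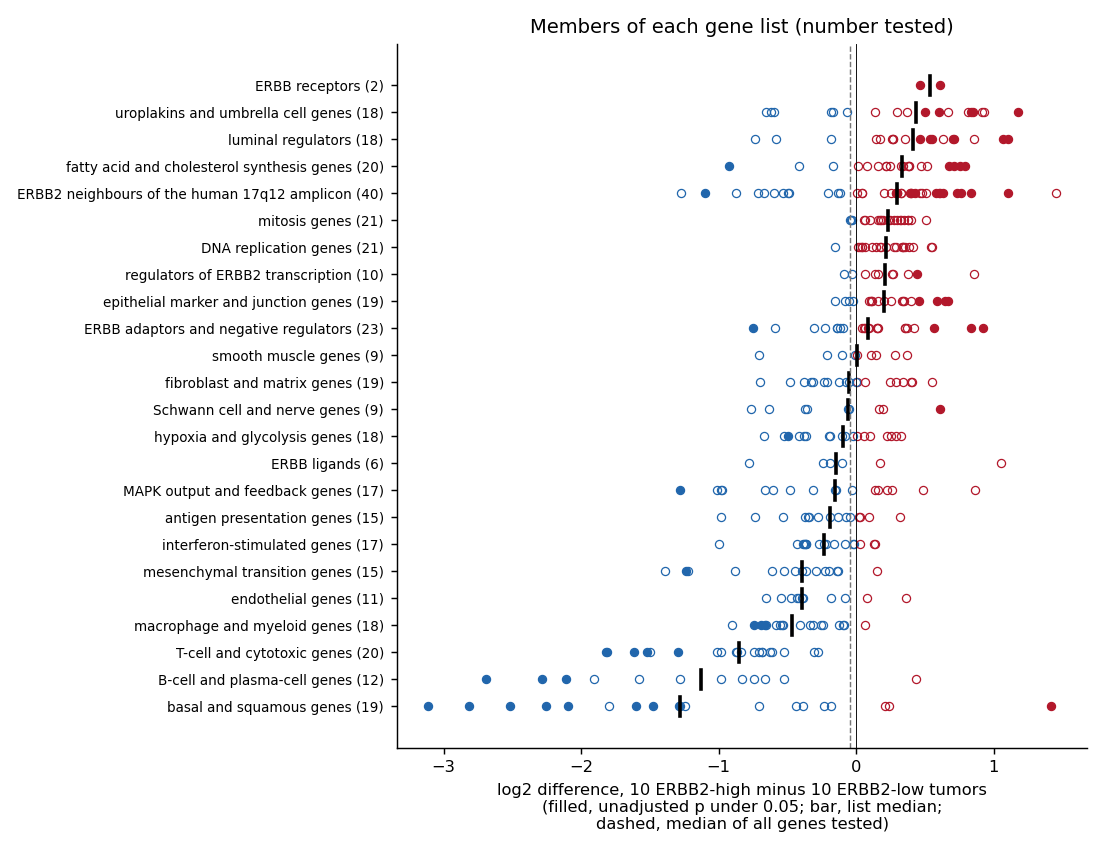
Difference between 10 ERBB2-high and 10 ERBB2-low tumors (horizontal axis, log2 scale) for each tested gene of 24 lists (vertical axis, with the number tested), where filled points have an unadjusted p under 0.05, bars are list medians and the dashed line is the median of all genes at -0.05. List medians run from 0.54 for the 2 ERBB receptors to -1.28 for basal and squamous genes, and no point passes an adjusted p of 0.05.

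Basal and squamous genes were on the other side. Of 19 members, 1 was higher and 8 were lower at an unadjusted p under 0.05, and the median difference was -1.28. DSG3, a desmosomal cadherin of squamous epithelium, had values of -3.17, -0.60 and 1.75 in ERBB2-high and -2.44, 2.26 and 6.35 in ERBB2-low tumors. The difference was -3.11 (SE 1.16, 95% CI -5.53 to -0.70, p = 0.014, adjusted p = 0.575), and no ERBB2-high tumor reached the median of the low group. KRT14, a basal keratin, differed by -2.82 (SE 1.13), KRT13 by -2.52 (SE 0.97), SCEL, sciellin of the cornified envelope, by -2.26 (SE 0.81), CD44 by -1.60 (SE 0.60) and DSC3 by -1.48 (SE 0.60). In the low group KRT14 ran from -0.72 to 9.54, which shows how unevenly these genes were spread among ERBB2-low tumors. The 1 member that was higher was TGM1, a transglutaminase of the cornified envelope (1.42, SE 0.53). Tumor 20 was the highest of 29 tumors for KRT14 and KRT13, and without it the list median was -0.88. Mesenchymal transition genes had 0 higher and 1 lower of 15, PRRX2 (-1.24, SE 0.53), with a median difference of -0.39, or 0.02 with the epithelial covariate.

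Genes of immune cells were lower on the whole in ERBB2-high tumors. Such values are from bulk tissue, in which fewer cells of a type and less RNA per cell cannot be told apart. T-cell and cytotoxic genes had 0 of 20 members higher and 5 lower, with all 20 differences below 0 (-1.82 to -0.28) and a median of -0.85. Over all genes tested, 9381 of 21331 had a higher mean in ERBB2-high tumors. Members of 1 list are not independent, and no test of a list was made. CD3E, a chain of the T-cell receptor complex, had values of -2.42, -1.69 and 0.98 in ERBB2-high and -0.45, 0.43 and 3.79 in ERBB2-low tumors. The difference was -1.81 (SE 0.55, 95% CI -2.96 to -0.66, p = 0.00367, adjusted p = 0.472), and 7 of 10 ERBB2-high tumors lay below the median of the low group. ZAP70, the kinase of that receptor, differed by -1.82 (SE 0.59), CD3G by -1.52 (SE 0.53) and TBX21, a factor of type 1 T cells, by -1.62 (SE 0.62). Tumor 20 was highest of 29 for the list as a whole, and without it the median was -0.56.

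B-cell and plasma-cell genes had 0 of 12 higher and 3 lower and a median of -1.13. MZB1, a plasma-cell chaperone, differed by -2.69 (SE 0.98, p = 0.0125) and was at 8.79 in tumor 20, without which the difference was -1.94. CD79A, of the B-cell receptor, differed by -2.11 (SE 0.85) and JCHAIN, the joining chain of antibodies, by -2.28 (SE 0.95). Macrophage and myeloid genes had 0 of 18 higher and 3 lower (median -0.47, and -0.26 without tumor 20), namely C1QC (-0.74, SE 0.29), C1QA (-0.70, SE 0.31) and MSR1 (-0.66, SE 0.29). With the epithelial list as a covariate the medians were -0.48 for T-cell, -0.36 for B-cell and -0.23 for macrophage genes. The mean level of the T-cell list ran from -1.83 to 0.67 in ERBB2-high and from -0.98 to 2.55 in ERBB2-low tumors, and 1 of its 20 members was at the lowest value in at least 5 tumors of each group. How far epithelial content or immune cell numbers account for the differences of other genes was not tested.

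By members at an unadjusted p under 0.05, lists of other cell types and states stood near the background, though several leaned in 1 direction. Fibroblast and matrix genes (0 of 19 at an unadjusted p under 0.05, median -0.05), smooth muscle genes (0 of 9, 0.01) and endothelial genes (0 of 11, -0.39) had no member past it, and their medians were 0.50, 0.85 and 0.09 with the epithelial covariate. Neither had interferon-stimulated genes (0 of 17, -0.24, and 0.06 with the olfactory receptor share as a covariate) or antigen presentation genes (0 of 15, -0.19). Over all genes tested, 9381 of 21331 had a higher mean in ERBB2-high tumors, and of the endothelial genes 2 of 11 had. Mitosis genes had a higher mean there in 18 of 21 cases and DNA replication genes in 20 of 21. The medians of these 2 lists were 0.23 and 0.21, and 0 members of either passed an unadjusted p of 0.05 by limma. Their median differences without tumor 11 were -0.02 and 0.08. Hypoxia and glycolysis genes had 1 of 18 lower, P4HA2, a collagen prolyl hydroxylase (-0.50, SE 0.18), with a median of -0.09, or -0.27 with the epithelial covariate.

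Genes of fatty acid and cholesterol synthesis had 4 of 20 higher and 1 lower, with a median of 0.33, or 0.18 with the epithelial covariate. SREBF2, the transcription factor that controls cholesterol synthesis, had values of -0.04, 0.29 and 0.90 in ERBB2-high and -1.48, -0.32 and 0.35 in ERBB2-low tumors (difference 0.75, SE 0.20, p = 0.00114, adjusted p = 0.386). The enzymes PMVK (0.79, SE 0.29) and FDFT1 (0.67, SE 0.29) followed. The member that was lower was STARD4, a cholesterol transfer protein (-0.93, SE 0.32, p = 0.00824).

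**Figure D4:**
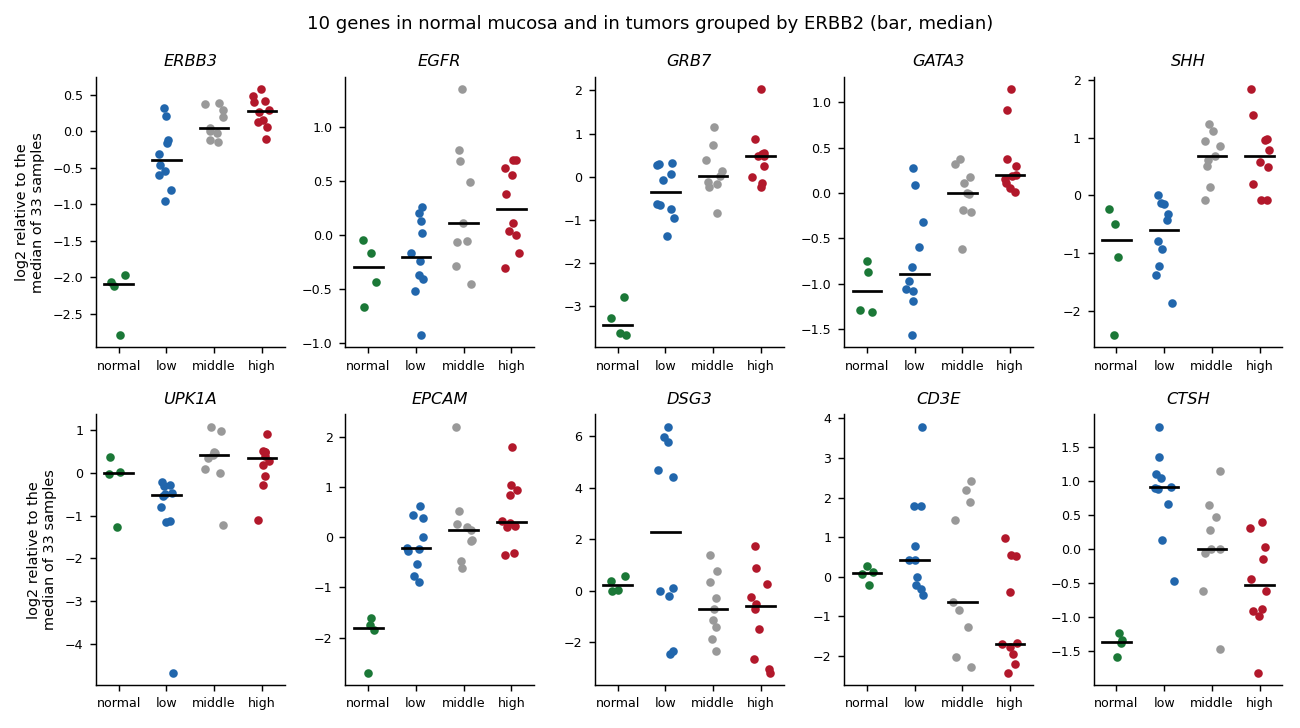
Log2 values relative to the median of 33 samples (vertical axes) for 10 genes in 4 normals and in 10 ERBB2-low, 9 middle and 10 ERBB2-high tumors (horizontal axes), with 1 point a sample and bars at the median. ERBB3, GRB7 and GATA3 have higher medians in the high than in the low group and DSG3, CD3E and CTSH lower ones, and in all 10 panels the points of both groups overlap.

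The 12 named genes with the smallest p among those higher in ERBB2-high tumors, none of them past the adjusted threshold, were SHH, ANKRD9, WIPI2, GATA3, EPN3, SLA, TMEM184A, ANO1, TBX2, CHURC1-FNTB, S100A5 and ARRDC1, with adjusted p from 0.258 to 0.279. SHH, the hedgehog ligand made by urothelium, had values of -0.08, 0.69 and 1.84 in ERBB2-high against -1.86, -0.61 and 0.00 in ERBB2-low tumors. The difference was 1.43 (SE 0.28, 95% CI 0.86 to 2.00, p = 4.04e-05, adjusted p = 0.258). The middle tumors had a median of 0.69, like the high group, and the normals lay at -2.43 to -0.23. ANKRD9, an ankyrin repeat protein, differed by 0.97 (SE 0.19, p = 4.1e-05), with medians of 0.48 and -0.43. ANO1, a calcium-activated chloride channel, differed by 1.60 (SE 0.35) and SLA, an adaptor that dampens Src-family signalling, by 1.30 (SE 0.28). WIPI2, an autophagy protein, was the only gene tested whose groups did not overlap (0.00469% of genes), with a lowest ERBB2-high value of 0.00 and a highest ERBB2-low value of -0.02. Its difference was 0.69 (SE 0.14). EPN3, an endocytic adaptor (0.75, SE 0.16), TBX2 and ARRDC1 (0.69, SE 0.16) lie on the chromosome of ERBB2, 96, 160 and 334 tested genes away from it.

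The 12 with the smallest p among those lower, also not past the threshold, were ZNF613, CTSH, CNR2, TRDV3, CTSL, CRYBA4, NODAL, ADK, IER5, BHLHE40, CA6 and UBE2U, with adjusted p from 0.259 to 0.345. None of the 11 that could be placed lies on the chromosome of ERBB2. CTSH, a lysosomal protease, had values of -1.81, -0.53 and 0.40 in ERBB2-high and -0.47, 0.91 and 1.80 in ERBB2-low tumors, a difference of -1.34 (SE 0.29, 95% CI -1.94 to -0.74, p = 0.000151). CTSL, a second lysosomal protease, differed by -0.99 (SE 0.23), with medians of -0.63 and 0.53. Several others of the 12 were at the lowest value in some tumors and had a higher median in the normals than in either group. NODAL, a signal of early development, was at the lowest value in 6 of 10 ERBB2-high and 1 of 10 ERBB2-low tumors and had a normal median of 2.73. CA6, a secreted carbonic anhydrase, was at it in 7 of 10 and 0 of 10, with a normal median of 3.86. For NODAL the difference was -2.88 (SE 0.69), and -3.38 without the 4 tumors with most olfactory receptor genes above the lowest value. The part of that share in these genes was not tested further.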

How the data were processed

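Per the labels and the study's methods, the authors aligned paired-end reads to CanFam3.1 with COBWeb in Strand NGS 3.1, quantified annotated genes, and deposited 2 tables, scaled by TMM or by DESeq. In both, the deposited values are log2 and have the gene's own median over 33 samples subtracted. They are not counts, and the depth of each library is not in them. Many genes share a lowest value, which as read from the values stands for 1 on the linear normalized scale. Of 25096 genes in the TMM table, 12202 carry a symbol.

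Tumors were grouped by ERBB2, which was left out of the tests. Genes above their lowest value in 4 or more of these 20 tumors entered the fit. Both groups were set against each other in limma (version 3.58.1, R 4.3.3; linear model with empirical Bayes, two-sided) on the log2 values without a pseudocount, with Benjamini-Hochberg adjustment over all genes tested. The procedure was tested on simulated data. Technical measures were compared by two-sided permutation tests with 100000 resamples. P-values measure the spread between dogs, 1 tumor each; no pair of samples had identical values. Gene order came from the RefSeq table of UU_Cfam_GSD_1.0, another build than that of the files, so no coordinates are given. Sequences were not used here. Named genes are the 12 of smallest p in each direction with a symbol (olfactory receptor and LOC symbols left out), all ERBB receptors, ligands and 17q12 neighbors, and 2 to 4 members of smallest p of each other list, with further members added after their values were seen; some members that the counts include are not reported here by name. Members, lists and tests were chosen with earlier results of these data known. Other steps ran in Python 3.11.15 (scipy 1.17.1, pandas 2.3.3, numpy 2.4.6; figures in matplotlib 3.10.9).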

Additional observations from a re-analysis of the deposited data

Results flagged for a closer look

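Among the genes described by group, single samples stood far from the rest of their group of 10 tumors or 4 normals in 14 of 129 groups, where chance gives about 1 in 20. ERBB2, which set the groups, was left out, and the other genes were chosen with their values known, so the count is a description. Tumor 2 was the far highest ERBB2-high tumor for GRB7 (2.02), PGAP3 (2.09), MED24 (2.00), LASP1 (3.01), STARD3 (1.85) and CDK12 (1.81), all of them neighbors. Tumor 20 was far from the other ERBB2-low tumors at the low end for MED24 (-0.76), PPARG (-2.33) and UPK1A (-4.65), and at the high end for CD3E (3.79). Tumor 11 was far below its group for TOP2A (-2.66). Normal 4 was far below the other normals for TBX2 (-1.83), UPK3A (-3.20) and UPK2 (-2.14).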

How the results depend on the processing

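The number of genes higher in ERBB2-high tumors was 0 in the main comparison. It was 43 with the slope on ERBB2 over 29 tumors and 65 with the slope without tumor 2, and 0 under every other alternative, except that leaving out 1 tumor gave 0 to 2. The 2 came from leaving out tumor 1. The number lower was 1. It was 0 with the DESeq-normalized table, with tumors ranked in that table, without a filter, with 3 groups fitted together, with 14 against 14 tumors, with the slope over 27 tumors, with both end tumors or the 4 tumors with most olfactory receptor genes left out, and with the olfactory, fibroblast or epithelial covariate. It was 4 and 120 with the slopes over 29 and 28 tumors, and 0 to 2 when 1 tumor was left out; it was 2 without tumor 9 or tumor 17. A variance trend, tumor weights, another centring, a filter at 10 tumors and a 2-fold minimum left it at 1. The call of ENSCAFG00000037514 was kept without tumor 1, 11, 22, 9 or 17 and lost without each of the other 15 (adjusted p 0.00813 to 0.139). The cause was not tested. The differences followed for single genes kept their sign. The medians of ERBB ligand, mesenchymal, fibroblast, smooth muscle, endothelial, interferon, mitosis, hypoxia and Schwann cell genes changed sign under 1 or more alternatives. List medians that moved by over 1.5 times when 1 tumor was left out included T-cell genes (-0.56) and macrophage genes (-0.26) without tumor 20, 17q12 neighbors (0.16) without tumor 2 and mitosis genes (-0.02) without tumor 11; ranked by the DESeq-normalized table the macrophage median was -0.17. No paired analysis was possible because each dog gave 1 tumor and numbers only name samples. With 10 tumors a group and a median standard error of 0.31, large differences as well as small ones stayed short of the adjusted threshold. Among them were 1.43 for SHH, -2.88 for NODAL and -3.11 for DSG3. The low number of calls therefore does not mean that only small differences were present.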

Other observations

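Runs of neighboring genes in which 1 tumor was the highest of 29, as seen for tumor 2 beside ERBB2, were looked for in every tumor over windows of 25 tested genes, after the data had been seen. Among the ERBB2-high tumors the fullest window belonged to tumor 18, at 0.49 for ERBB2, which was the highest for 23 of 25 genes in a window on the same chromosome as ERBB2. It ran from WBP2 to CDR2L and holds GRB2, the adaptor that links receptor tyrosine kinases to RAS. GRB2 reached 1.74 in the ERBB2-high group, whose median was 0.17. Tumor 2 topped 18 of 25 genes in its fullest window, tumor 4 topped 13 between ADAM9 and ADGRA2, and in the other 7 ERBB2-high tumors the fullest window held 3 to 12. Among ERBB2-low tumors tumor 1 topped 18 of 25 genes between LIG4 and DCUN1D2. Tumor 3, in the middle group, topped 21 between PEX6 and MAD2L1BP. Over all placed genes, tumor 2 was highest for 4.52% and tumor 18 for 4.85%.

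Tumor 2 and tumor 20 also differed in other gene groups. By the mean standardized level of a list over 29 tumors, tumor 2 ranked 27 for mitosis genes, 27 for DNA replication genes and 27 for T-cell genes, and 4 for luminal regulators. Tumor 20 ranked 1 for T-cell, B-cell and basal and squamous genes, 2 for macrophage genes and 29 for luminal regulators and umbrella cell genes.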
